A study of Homo sapiens with 12 samples.

Results

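Transcripts of 10 BCL2 family genes were followed in HUDEP-2 cells, an immortalised erythroid precursor line derived from umbilical cord blood that depends on the Kit receptor. The genes were picked by symbol as a family of known survival and death regulators, 10 of the 54628 genes listed in the count table: the survival genes BCL2, BCL2L1, MCL1 and BCL2A1, the effector genes BAX and BAK1, and the BH3-only genes BCL2L11, BAD, BIK and BMF. Of these, 9 passed the filter on low counts and were tested among 15492 genes. BCL2A1 did not pass, with 0 counts in all 12 libraries. The 10 genes were picked with earlier results of these data known, so counts of called members describe this list only.

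BCL2 family proteins control whether the outer mitochondrial membrane stays intact. Survival members bind and restrain the effectors BAX and BAK, whose assembly in the membrane releases cytochrome c and starts caspase activation, and BH3-only members promote death by occupying survival members or engaging effectors. In erythroid precursors, BCL-XL, the main product of BCL2L1, and MCL-1 are known survival factors, and growth factor withdrawal is a classic trigger of BIM, the product of BCL2L11.

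The 12 libraries fell into 4 groups of 3: sgControl PBS, sgControl SCF, sgEGR1 PBS and sgEGR1 SCF. All cells were HUDEP-2 cells that carried a lentiviral guide RNA together with KRAB-dCas9, a catalytically dead Cas9 fused to a repressor domain, and were sorted by GFP. They were deprived of growth factors for 5 h and then given PBS or 50 ng/mL of stem cell factor (SCF), the Kit ligand, for 1 h. The sgEGR1 guide directs repression to a Kit-responsive element upstream of EGR1, so it lowers transcription of a gene that remains intact, and sgControl is a scrambled guide. The methods call the 3 samples of each group biological replicates, lysed individually, without saying whether cells were transduced and grown separately, and p-values measure the spread between these libraries.

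The sgEGR1 guide sequence is shown because it defines the site of repression, 5′ to 3′, with the adjoining PAM in capitals.
sgEGR1: ggatgacagcgatagaacccCGG
The sgEGR1 guide had 1 exact match in hg38, on the plus strand at chr5:138464830-138464849, outside any annotated gene, and its centre lay 640 bases upstream of the annotated start of EGR1. The paper places the targeted element further upstream of the EGR1 start than this match.

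RefSeq promoter windows (GRCh38.p14, 250 bases before to 50 after the start) were matched for 8 of the 10 genes, in 11 windows, and were searched on both strands for short motifs. The letters searched were GCGNGGGCG for the EGR motif, TGANTCA for the AP-1 motif, TGACGTCA for the cyclic AMP response element (CRE), AGATAA for the motif of GATA factors, TTCNNNGAA for the motif of STAT factors, and GTAAACA for the motif of forkhead factors. MCL1 and BIK were not matched. Matches stood in 3 of the 11 windows. The EGR letters occurred in the windows of BCL2L11 and BAX, the forkhead letters in that of BCL2L11, and the STAT letters in that of BCL2A1. Among all 35116 windows the shares with a match were 9.43% for EGR, 7.71% for AP-1, 1.85% for CRE, 10.3% for GATA, 7.66% for STAT and 3.42% for forkhead. The BCL2L11 and BAX windows are printed because EGR1 is the gene repressed by the guide, with the matched letters in capitals. Each runs 5′ to 3′ in the gene's own direction, on the plus strand, at chr2:111120664-111120963 for BCL2L11 and chr19:48954625-48954924 for BAX.
BCL2L11 promoter: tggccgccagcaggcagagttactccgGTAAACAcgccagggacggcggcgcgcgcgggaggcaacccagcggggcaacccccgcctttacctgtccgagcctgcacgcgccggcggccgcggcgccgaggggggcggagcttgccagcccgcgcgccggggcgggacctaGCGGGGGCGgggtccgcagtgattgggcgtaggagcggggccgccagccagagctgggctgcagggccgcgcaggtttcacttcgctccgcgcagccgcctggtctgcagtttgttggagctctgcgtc
BAX promoter: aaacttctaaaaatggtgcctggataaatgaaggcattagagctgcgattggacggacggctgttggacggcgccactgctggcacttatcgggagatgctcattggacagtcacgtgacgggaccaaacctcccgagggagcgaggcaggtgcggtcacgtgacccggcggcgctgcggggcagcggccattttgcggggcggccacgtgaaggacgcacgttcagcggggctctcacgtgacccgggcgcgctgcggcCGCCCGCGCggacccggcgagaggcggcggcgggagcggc
In the BCL2L11 window the forkhead letters start at -223 and the EGR letters at -79 from the start site, and in the BAX window the EGR letters, on the opposite strand, start at position 11.

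Library totals ranged from 23.5 to 32.04 megacounts, and levels are given in CPM, counts per megacount of scaled library total. The main axis of variation separated replicate 1 from the other two replicates in all 4 groups, and 26.6% of the tested genes were called between them at an adjusted p under 0.05, the threshold used throughout. EGR1 measured 10.9, 5.98 and 7.44 CPM in sgControl PBS, 207, 239 and 171 CPM in sgControl SCF, 2.04, 1.12 and 0.976 CPM in sgEGR1 PBS, and 40.4, 57.3 and 203 CPM in sgEGR1 SCF, in the order of replicates 1 to 3. The library labelled sgEGR1 SCF replicate 3 thus held EGR1 at the level of the sgControl SCF libraries, against its label. All 11 erythroid marker genes passed the filter, with a summed level of 20006 to 23204 CPM that overlapped between groups and was mostly HBB. The fetal globin genes HBG1 and HBG2, near-identical copies that may share reads, were higher with sgEGR1 without overlap after PBS (HBG2 50.4 to 92.7 against 27.8 to 34.6 CPM, HBG1 84.6 to 166 against at most 55.7 CPM, with 1 library listed at 0) and, for HBG1, after SCF (64.5 to 146 against 35.6 to 61.3 CPM), though edgeR called neither. The 3 lymphoid markers and 2 of 4 myeloid markers were at 0, and the myeloid sum was at most 0.563 CPM. Of 3 megakaryocyte markers 2 were at 0, and the sum, all from ITGA2B, was at most 35.1 CPM. Of the 3 markers listed for non-blood cells, which include the HEK-293T cells used to make virus, PAX2 was at 0 and COL1A1 averaged at most 0.136 CPM in any group. EPCAM carried the sum, at 138 to 171 CPM, and these sums overlapped between groups. A sum carried by EPCAM alone does not show that such cells were present.

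MCL1 rose close to 2-fold within 1 h of SCF in both guide backgrounds, with a spread between replicates that was small beside the rise. It was the family member with the clearest response. On average over both guides BCL2L11 was lower after SCF and BAK1 and BIK were higher, all to a smaller extent, and BCL2L1, BAX and BAD were not called. No member was called as different between sgEGR1 and sgControl, and by edgeR neither was EGR1, the gene repressed by the guide. EGR1 was still lower in every sgEGR1 PBS library than in any sgControl PBS library. By qPCR the paper reports less Kit-induced EGR1 mRNA when the element was targeted.

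**Figure D1:**
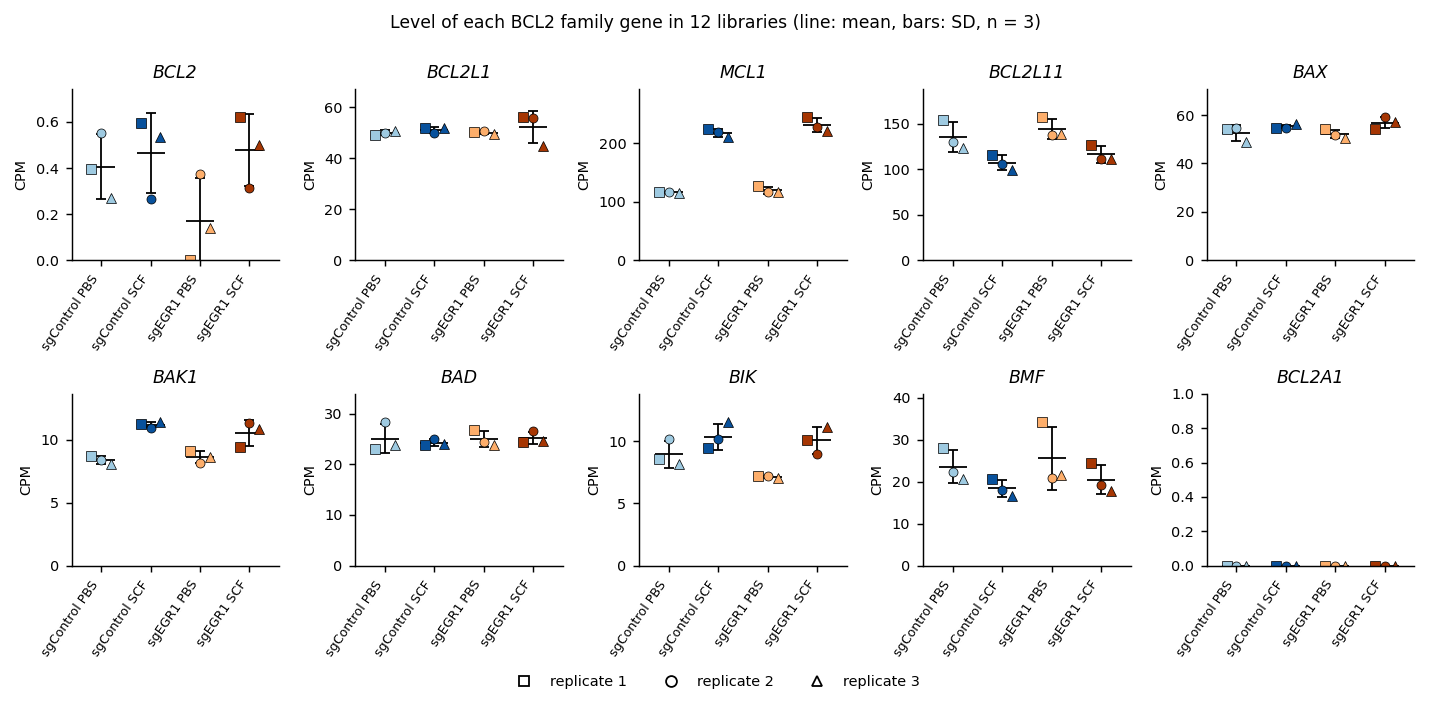
Level of each of the 10 genes in CPM (vertical axes, starting at 0) in the 12 libraries, grouped by guide and treatment. Symbols mark replicate number, the horizontal line the mean and bars the SD (n = 3); MCL1 separates PBS from SCF libraries without overlap, and BCL2L11 and BMF are highest in replicate 1 of each group.

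Levels were first compared between genes per length, as CPM per kilobase of the MANE transcript. In sgControl PBS cells BAX stood highest, at 66.1 ± 4.08 CPM per kb (SD, n = 3). MCL1 followed at 29.4 ± 0.195, BAD at 27.0 ± 3.001 and BCL2L11 at 26.6 ± 3.20 CPM per kb, and the ranges of these 3 genes overlapped. BCL2L1 stood at 19.4 ± 0.379, BIK at 9.41 ± 1.15, BMF at 5.03 ± 0.830 and BAK1 at 3.88 ± 0.146 CPM per kb, with no overlap between these neighbours. BCL2 was near the floor of detection at 0.0591 ± 0.0204 CPM per kb. The effectors thus differed widely in transcript level, BAX far above BAK1, as did the survival genes, with MCL1 and BCL2L1 far above BCL2. After SCF, MCL1 reached 55.1 ± 1.71 CPM per kb in sgControl cells, clear of BAD at 26.1 ± 0.705 CPM per kb, and BAX stood at 69.5 ± 1.02 CPM per kb. This order depends on the length used. With the union of all annotated exons, BAX averaged 20.3, BCL2L11 20.1 and MCL1 18.7 CPM per kb in sgControl PBS, so the lead of BAX was no longer seen, and MCL1 averaged 35.0 and BAX 21.4 CPM per kb in sgControl SCF.

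Summed per kb by role, the share of the family held by the survival genes was 25.4% to 27.7% in sgControl PBS and 34.9% to 36.0% in sgControl SCF libraries. In sgEGR1 cells it was 25.9% to 26.9% in PBS libraries and 34.3% to 37.5% in SCF libraries. The share of the BH3-only genes was 35.5% to 37.0% and 29.0% to 29.4% in sgControl cells, and 35.5% to 37.6% and 28.7% to 30.0% in sgEGR1 cells. PBS and SCF libraries did not overlap in either share. The size of these shares depends on the MANE lengths used. They were not computed with the union of exons, which puts BAX at 20.3 in place of 66.1 CPM per kb in sgControl PBS. The BH3-only sum itself ran from 62.8 to 71.3 CPM per kb after PBS and from 61.0 to 62.7 CPM per kb after SCF in sgControl cells, narrowly apart, and overlapped in sgEGR1 cells, at 64.7 to 74.6 and 63.7 to 67.0 CPM per kb. The survival sum averaged 48.9 ± 0.180 CPM per kb after PBS and 75.1 ± 1.69 CPM per kb after SCF in sgControl cells, and most of this difference was MCL1.

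**Figure D2:**
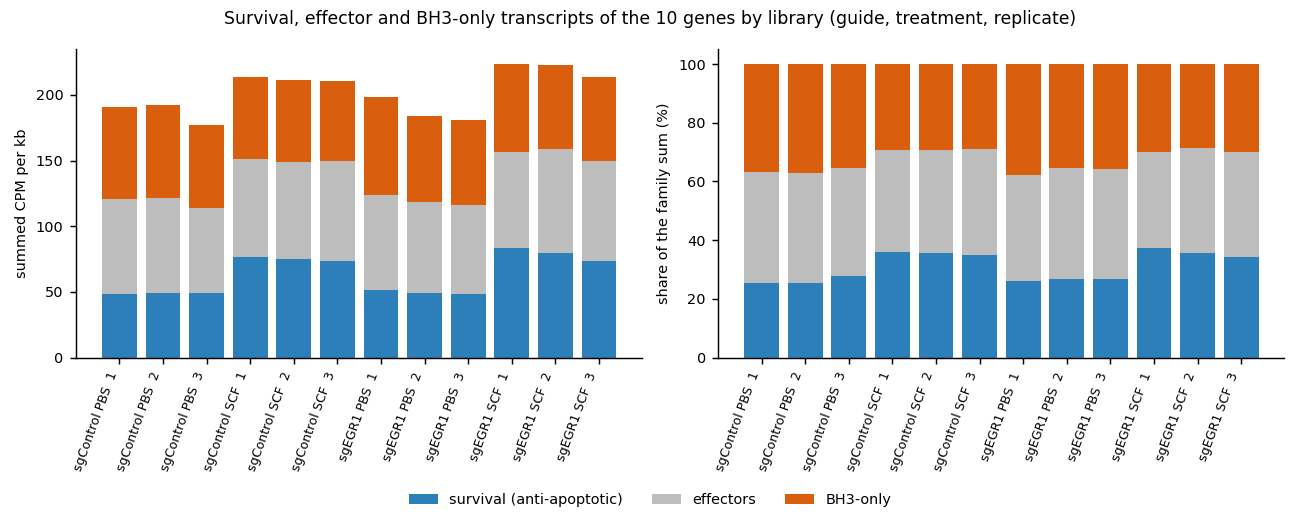
Sums of survival, effector and BH3-only transcripts by library, in CPM per kb of MANE transcript (left) and as a share of the sum over the 10 genes in percent (right). Survival genes take 25.4% to 27.7% of the sum in PBS libraries and 34.3% to 37.5% in SCF libraries over both guides.

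The question of the SCF comparisons is how the family responds to acute Kit stimulation in the presence of a control guide or of the EGR1 guide. In sgControl cells 2 of the 9 tested members were called, MCL1 and BAK1, both higher, beside 2.89% of all tested genes. In sgEGR1 cells 1 of 9 was called, MCL1, beside 2.59% of all tested genes. Averaged over both guides, 4 of 9 were called, with MCL1, BAK1 and BIK higher and BCL2L11 lower, beside 9.03% of all tested genes. The median log2 fold change of the 9 members was 0.07 in sgControl, 0.12 in sgEGR1 and 0.10 on average, and that of all tested genes was -0.01, -0.00048 and -0.0045. Groups of libraries did not overlap for 4 of 9 members in sgControl cells (19.6% of all tested genes) and for 5 of 9 in sgEGR1 cells (21.2% of all tested genes). For a single gene, the two-sided exact permutation test of 3 against 3 libraries cannot go below p = 0.1, which is the value for each of these non-overlapping members.

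Among survival genes, MCL1 encodes a short-lived protein that restrains BAK and BIM. It lies at chr1:150560895-150579738 on the minus strand of hg38. MCL1 measured 117, 116 and 115 CPM in sgControl PBS and 223, 219 and 210 CPM in sgControl SCF libraries. In sgEGR1 cells it measured 126, 117 and 116 CPM after PBS and 244, 227 and 220 CPM after SCF. All 6 SCF libraries lay above all 6 PBS libraries, and within each group the values stayed close together. The rise was 1.88-fold in sgControl cells (log2 fold change 0.91, SE 0.0493, adjusted p = 3.01e-06 by edgeR's quasi-likelihood test) and 1.93-fold in sgEGR1 cells (log2 fold change 0.95, SE 0.0493, adjusted p = 1.83e-06). By p-value MCL1 ranked at position 2 of 15492 genes in both comparisons, although by fold change it ranked at 253 and 277, beside a small spread between replicates. Differences between same-numbered libraries were 0.94, 0.92 and 0.87 log2 units in sgControl and 0.95, 0.96 and 0.93 in sgEGR1 cells. MCL1 exons overlap ADAMTSL4 on the opposite strand, which averaged 32.998 ± 1.14 CPM in sgControl PBS, 31.3 ± 1.49 CPM in sgControl SCF, 25.5 ± 2.03 CPM in sgEGR1 PBS and 25.9 ± 5.16 CPM in sgEGR1 SCF, and whether strand was used in counting is not stated. ADAMTSL4-AS1, on the same strand as MCL1, averaged at most 0.139 CPM in any group. In bulk RNA, fewer expressing cells and less RNA per cell cannot be told apart, and gene counts do not separate the long, protective MCL1 isoform from shorter ones.

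BCL2L1, at chr20:31664452-31723989 on the minus strand, measured 49.0, 50.1 and 50.9 CPM in sgControl PBS, 51.9, 49.7 and 51.9 CPM in sgControl SCF, 50.1, 50.7 and 49.4 CPM in sgEGR1 PBS, and 56.1, 55.8 and 45.0 CPM in sgEGR1 SCF libraries. The groups overlapped, and the lowest and the highest of the 12 values were both in sgEGR1 SCF. The log2 fold change after SCF was 0.03 (95% interval -0.12 to 0.19) in sgControl and 0.06 (-0.10 to 0.22) in sgEGR1 cells. The second value rests on sgEGR1 SCF replicate 3, the library whose EGR1 goes against its label, and was 0.16 without it, still not called. The ratio of MCL1 to BCL2L1 in CPM, not scaled for length, was 2.27 to 2.52 in the PBS and 4.06 to 4.90 in the SCF libraries. BCL2L1 gene counts pool the protective long and the death-promoting short isoform.

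BCL2 itself, the founding survival gene, was nearly silent. Its counts were 11, 14 and 7 in sgControl PBS, 19, 8 and 17 in sgControl SCF, 0, 10 and 4 in sgEGR1 PBS, and 18, 9 and 16 in sgEGR1 SCF libraries, or 0 to 0.621 CPM. These counts are too low to resolve moderate changes, and the 95% interval of the log2 fold change ran from -1.21 to 1.60 in sgControl and from -0.12 to 2.98 in sgEGR1 cells. BCL2A1, a survival gene of activated myeloid and lymphoid cells, was not detected in any library, and a count of 0 allows up to 0.0936 to 0.128 CPM per library, counting error only.

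Of the effectors, BAK1 encodes BAK, which resides on mitochondria and is held in check by MCL-1 and BCL-XL. It lies at chr6:33572547-33580293 on the minus strand. BAK1 measured 8.74, 8.42 and 8.10 CPM in sgControl PBS and 11.2, 10.96 and 11.4 CPM in sgControl SCF libraries. In sgEGR1 cells it measured 9.06, 8.15 and 8.65 CPM after PBS and 9.42, 11.3 and 10.9 CPM after SCF. All SCF libraries lay above all PBS libraries. In sgControl cells BAK1 rose 1.33-fold (log2 fold change 0.41, SE 0.0910, adjusted p = 0.0348), and in sgEGR1 cells the log2 fold change of 0.29 did not pass (SE 0.0912, adjusted p = 0.132). The call in sgControl cells was lost when any of the 6 sgControl libraries or sgEGR1 PBS replicate 3 was left out, with no low-count filter, and with only the 2 groups in the fit, with adjusted p up to 0.129 over all alternatives. The average over both guides, 1.27-fold (log2 fold change 0.35, adjusted p = 0.00528), was called under all 19 alternatives.

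BAX encodes the mainly cytosolic effector, at chr19:48954815-48961798 on the plus strand. BAX measured 54.4, 54.5 and 48.8 CPM in sgControl PBS, 54.8, 54.8 and 56.2 CPM in sgControl SCF, 54.0, 51.9 and 50.7 CPM in sgEGR1 PBS, and 54.4, 59.1 and 56.9 CPM in sgEGR1 SCF libraries. SCF libraries lay above PBS libraries in both guide backgrounds, in places by a narrow margin. The log2 fold changes of 0.07 (adjusted p = 0.639) and 0.12 (adjusted p = 0.307) did not pass, nor did the average of 0.10 (adjusted p = 0.146).

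Of the BH3-only genes, BCL2L11 encodes BIM, which binds all survival members and can engage BAX directly. It lies at chr2:111119378-111168444 on the plus strand. BCL2L11 measured 154, 130 and 124 CPM in sgControl PBS and 116, 106 and 99.6 CPM in sgControl SCF libraries. In sgEGR1 cells it measured 157, 138 and 139 CPM after PBS and 127, 111 and 111 CPM after SCF. Within each guide the SCF libraries lay below all PBS libraries, and replicate 1 was the highest of each group. In sgControl cells its log2 fold change of -0.34 (SE 0.0921, adjusted p = 0.0756) did not pass, nor did that of -0.31 in sgEGR1 cells (SE 0.0920, adjusted p = 0.109). The average over both guides, -0.33 or 1.25-fold lower (adjusted p = 0.00789), was called under all 19 alternatives. Replicate 1 exceeded replicates 2 and 3 by 0.21 log2 units (adjusted p = 9.15e-05), and in a fit with a term for replicate 1 BCL2L11 passed in sgControl (log2 fold change -0.34, adjusted p = 9.15e-05) and in sgEGR1 cells (-0.31, adjusted p = 0.000165). DESeq2, and replicates 2 and 3 alone, also called BCL2L11 in both. Between same-numbered libraries it fell by 0.41, 0.30 and 0.31 log2 units in sgControl and by 0.31, 0.30 and 0.32 in sgEGR1 cells. MIR4435-2HG overlaps BCL2L11 exons on the opposite strand and averaged 18.1 ± 1.01 CPM in sgControl PBS and 18.7 ± 2.43 CPM in sgControl SCF.

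BMF encodes a BH3-only protein tethered to the cytoskeleton, and lies at chr15:40087890-40108892 on the minus strand. BMF measured 28.0, 22.2 and 20.5 CPM in sgControl PBS, 20.6, 18.1 and 16.5 CPM in sgControl SCF, 34.1, 21.0 and 21.5 CPM in sgEGR1 PBS, and 24.5, 19.2 and 17.8 CPM in sgEGR1 SCF libraries. Its groups overlapped, with replicate 1 well above the others everywhere. The log2 fold changes of -0.36 (adjusted p = 0.440) and -0.32 (adjusted p = 0.491) did not pass, nor did the average of -0.34 (adjusted p = 0.154). Replicate 1 exceeded replicates 2 and 3 by 0.44 log2 units (adjusted p = 0.000175). With a term for replicate 1 BMF passed in sgControl (-0.35, adjusted p = 0.0186) and in sgEGR1 cells (-0.30, adjusted p = 0.0386), the second not once sgEGR1 SCF replicate 3 was left out as well. The BMF average was called with the replicate block, with the term for replicate 1, with and without sgEGR1 SCF replicate 3, and with replicates 2 and 3 only. The SCF library was the lower of the pair for every replicate number.

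Across the 12 libraries log2 CPM of BCL2L11 and BMF had a Pearson r of 0.899, and 0.912 after subtraction of group means, and these points share libraries, depth and the shift of replicate 1. MCL1 and BCL2L11 had r = -0.747 over all libraries and 0.761 after subtraction of group means, so the opposite course of these genes was between treatments and not between replicates. MCL1 was also higher in replicate 1, by 0.08 log2 units (adjusted p = 0.0369), which made 3 of 9 members called between replicate numbers, all higher in replicate 1, beside the 26.6% of all tested genes. What replicate 1 stands for is not given, and its part in these values was not tested beyond the fit with its term. The ratio of MCL1 to BCL2L11 in CPM, not scaled for length, was 0.757 to 0.933 in the 6 PBS libraries and 1.92 to 2.11 in the 6 SCF libraries.

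BIK encodes a BH3-only protein mostly found at the endoplasmic reticulum, and lies at chr22:43110750-43129712 on the plus strand. BIK measured 8.52, 10.2 and 8.14 CPM in sgControl PBS and 9.41, 10.1 and 11.5 CPM in sgControl SCF libraries, which overlapped. In sgEGR1 cells it measured 7.19, 7.19 and 7.01 CPM after PBS and 10.1, 8.94 and 11.1 CPM after SCF, with no overlap. In sgControl cells its log2 fold change of 0.21 (SE 0.118, adjusted p = 0.477) did not pass, and that of 0.50 in sgEGR1 cells (SE 0.119, adjusted p = 0.0503) fell just outside the threshold. In sgEGR1 cells it passed with DESeq2, with a replicate block, with a term for replicate 1, and without sgControl PBS replicate 2 or sgControl SCF replicate 3. The average, 1.28-fold (log2 fold change 0.35, adjusted p = 0.0204), was called, but not without replicate 3 of any 1 of the 4 groups (adjusted p = 0.0514 to 0.0546).

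BAD, whose product is inactivated by kinases downstream of growth factor receptors, held 23.1 to 28.3 CPM in all 12 libraries with no separation of groups. Its log2 fold change after SCF was -0.05 (95% interval -0.22 to 0.13) in sgControl and 0.01 (-0.17 to 0.19) in sgEGR1 cells, neither of which passed (adjusted p = 0.883 and 0.978). BAD, at chr11:64269830-64284704 on the minus strand, overlaps exons of GPR137 on the opposite strand, which averaged 22.8 to 24.5 CPM in the 4 groups.

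**Figure D3:**
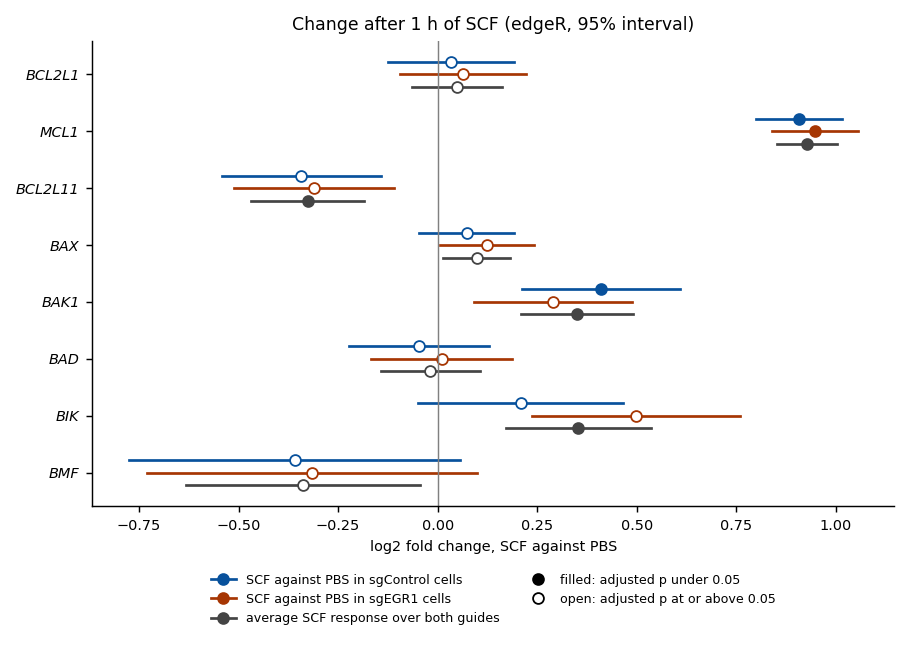
Log2 fold change after 1 h of SCF (horizontal axis) with 95% intervals from edgeR for 8 members, in sgControl cells, in sgEGR1 cells and averaged over both guides; BCL2 is left out for its wide interval and BCL2A1 was not tested. Filled points passed the adjusted threshold; MCL1 lies at 0.91 and 0.95 and BCL2L11 at -0.34 and -0.31.

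The guide comparisons ask whether repression at the EGR1 element changes family transcripts before or after SCF. No member was called as different between sgEGR1 and sgControl after PBS or after SCF, nor in the interaction, the log2 response to SCF of sgEGR1 cells less that of sgControl cells. In each of these 3 comparisons edgeR called 0% of all tested genes (715, 361 and 306 genes had an unadjusted p under 0.05), and DESeq2 called 20, 5 and 4 genes, 0 of them members. EGR1, the gene repressed by the guide, was not called by edgeR either. Its log2 difference was -2.59 after PBS (95% interval -4.34 to -0.84, adjusted p = 0.999) and -1.03 after SCF (-2.02 to -0.05, adjusted p = 0.9998). The interaction for EGR1 was 1.56 (-0.51 to 3.62). A lack of calls here therefore does not show that members were unchanged. The groups did not overlap for 1 of 9 members after PBS, against 9.3% of all tested genes, and for 0 of 9 after SCF, against 7.14%. That 1 member was BIK, with a log2 difference of -0.33 between sgEGR1 and sgControl after PBS (95% interval -0.59 to -0.07, adjusted p = 0.999 by edgeR), and its interaction was 0.29 (-0.08 to 0.66).

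For MCL1 the interaction was 0.04 log2 units (95% interval -0.11 to 0.19), which puts the ratio of the fold responses in sgEGR1 and sgControl cells between 0.926 and 1.14. This fit includes sgEGR1 SCF replicate 3, whose EGR1 was at the sgControl SCF level, so it does not bound the effect of lower EGR1. Leaving out 1 library at a time gave interaction estimates of -0.0019 to 0.079. After SCF, MCL1 was 1.06-fold as high with sgEGR1 as with sgControl (95% interval 0.985 to 1.14). Among sgEGR1 SCF libraries, replicate 1 had the lowest EGR1, at 40.4 CPM, and the highest MCL1, at 244 CPM, whereas replicate 3, at 203 CPM of EGR1, held 220 CPM of MCL1. Replicate 1 had the highest MCL1 in every group, so in this contrast EGR1 level and the shift of replicate 1 cannot be told apart. Over all 6 SCF libraries MCL1 stayed within 210 to 244 CPM while EGR1 ranged from 40.4 to 239 CPM. Each of these libraries held more EGR1 than any PBS library, the highest of which had 10.9 CPM. Whether MCL1 depends on EGR1 was not tested. For BCL2L11 the interaction was 0.03 (-0.25 to 0.31), for BAK1 -0.12 (-0.40 to 0.16), for BMF 0.04 (-0.54 to 0.63), for BCL2L1 0.03 (-0.20 to 0.25), for BAX 0.05 (-0.12 to 0.22) and for BAD 0.06 (-0.19 to 0.31). These intervals leave room for moderate differences, widest for BMF. They come from the fit without a replicate term, so their width includes shifts between replicates, and BMF was 0.44 log2 units higher in replicate 1. For BCL2 the interval of the interaction ran from -0.86 to 3.33. Without sgEGR1 SCF replicate 3 no member was called in these 3 comparisons either, with or without a term for replicate 1.

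**Figure D4:**
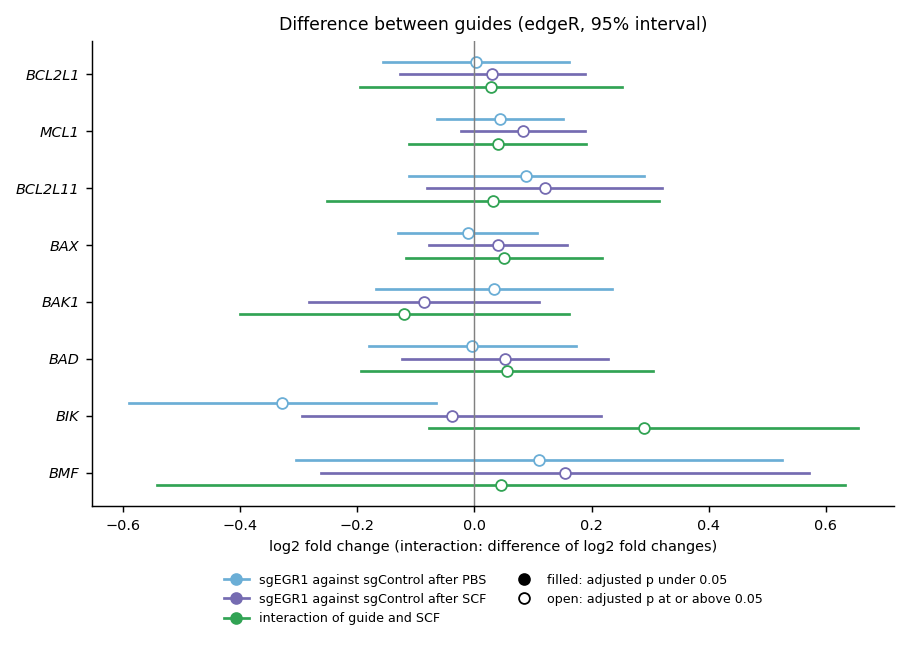
Log2 fold change of sgEGR1 against sgControl after PBS and after SCF, and the interaction as a difference of log2 fold changes (horizontal axis), with 95% intervals from edgeR for 8 members. All points are open, none past the adjusted threshold; BIK after PBS lies at -0.33.

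**Figure D5:**
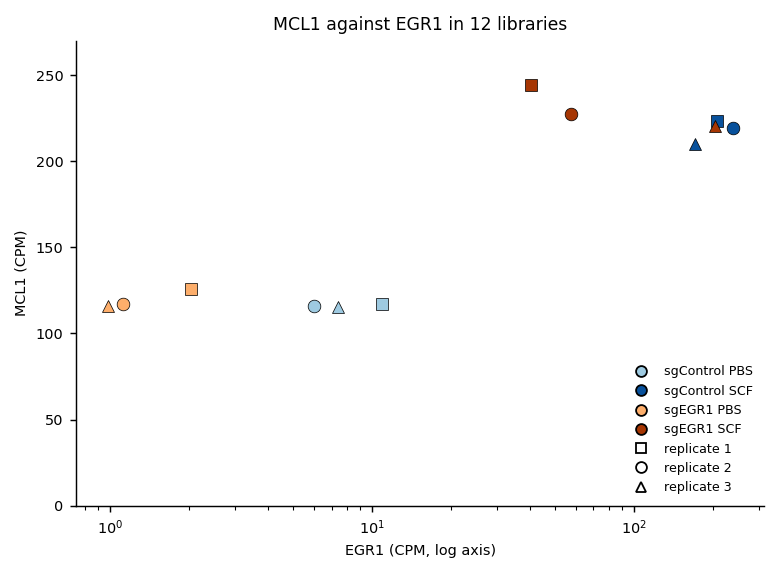
MCL1 (CPM, axis from 0) against EGR1 (CPM, log axis) in the 12 libraries, coloured by group with symbols for replicate number. MCL1 lies between 115 and 126 CPM in PBS libraries and between 210 and 244 CPM in SCF libraries, while EGR1 spans 40.4 to 239 CPM among the SCF libraries.

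Lists of related genes were read with the same fits, beside the 2.89% of all tested genes called in sgControl cells, 2.59% in sgEGR1 cells and 9.03% on average. Of 7 further family members of the same kind, 5 were tested, and 1 of these, BBC3, was called, lower after SCF in both guide backgrounds. BBC3 encodes PUMA, a BH3-only protein known as a target of p53 and of forkhead factors. It measured 36.7, 38.6 and 33.4 CPM in sgControl PBS, 22.4, 25.3 and 18.9 CPM in sgControl SCF, 42.9, 35.2 and 37.6 CPM in sgEGR1 PBS, and 24.7, 25.8 and 23.4 CPM in sgEGR1 SCF libraries. All SCF libraries lay below all PBS libraries. BBC3 was 1.63-fold lower in sgControl (log2 fold change -0.71, SE 0.105, adjusted p = 0.00353) and 1.57-fold lower in sgEGR1 cells (-0.65, SE 0.105, adjusted p = 0.00611), and it was called under all 20 alternatives in each. Its log2 decrease was larger than the estimate for any tested member that was lower after SCF, a difference that was not tested. BCL2L2, BOK, BID and PMAIP1 were not called, and BCL2L10 and HRK were at 0 in every library. The promoter window of BBC3 held the AP-1 letters at -113.

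Of 8 more distant BCL2 homology genes, 7 were tested and 0 were called in either guide. On average over both guides BNIP2 was higher by 0.13 log2 units (adjusted p = 0.011) and BNIP3L, a mitophagy receptor of maturing red cells, was lower by 0.11 (adjusted p = 0.0420), a call lost in 11 of 19 alternatives, among them leaving out any 1 library other than sgControl PBS replicate 1 or sgControl SCF replicate 3. Of 18 apoptosome, caspase and inhibitor genes, all tested, 0 were called in sgControl and 1 in sgEGR1 cells, CYCS, which encodes cytochrome c. CYCS rose in sgEGR1 cells by 0.41 log2 units (adjusted p = 0.0202), a call lost without sgEGR1 PBS replicate 2, sgEGR1 PBS replicate 3 or sgEGR1 SCF replicate 1, and on average by 0.32 (adjusted p = 0.00412), with 0.24 in sgControl cells (adjusted p = 0.166). The table lists 45 processed copies of CYCS, whose summed level was at most 2.42 CPM in a library, so its counts may be shared with them.

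Of 10 genes for proteins that bind, anchor or degrade family members, 9 were tested. YWHAZ, a 14-3-3 protein that holds phosphorylated BAD in the cytosol, rose by 0.16 log2 units in each guide (adjusted p = 0.0362 and 0.0390), and on average by 0.16 (adjusted p = 0.00218), called under all 19 alternatives. The call in sgControl cells was lost in 10 of 20 alternatives, among them leaving out any 1 library other than sgControl SCF, sgEGR1 PBS or sgEGR1 SCF replicate 1. That in sgEGR1 cells was lost in 11 of 20, among them leaving out any 1 library other than sgControl PBS replicates 1 and 2 and sgControl SCF replicates 1 and 3. The 10 processed copies of YWHAZ in the table summed to at most 3.88 CPM in a library. DYNLL1 and DYNLL2, the dynein light chains that anchor BIM and BMF, were higher on average by 0.24 and 0.23 log2 units (adjusted p = 0.029 and 0.0146), and the call of DYNLL1 was lost in 8 of 19 alternatives, leaving out any 1 library other than sgControl PBS replicate 1, sgControl SCF replicate 2, sgEGR1 PBS replicate 1 or sgEGR1 SCF replicate 2.

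Of 14 regulators of family transcription, EGR1 included, 3 rose in each guide: EGR1, MYC and SRF. MYC, a driver of growth that also sensitises cells to apoptosis, measured 210, 233 and 227 CPM in sgControl PBS and 436, 428 and 441 CPM in sgControl SCF libraries, and rose 1.95-fold and 1.91-fold in sgControl and sgEGR1 cells (adjusted p = 9.66e-05 and 0.000117). SRF, the serum response factor, rose 2.05-fold and 2.18-fold (adjusted p = 9.66e-05 and 5.49e-05). On average FOXO3, a forkhead factor with BCL2L11 and BBC3 among its known targets, was lower by 0.19 log2 units (adjusted p = 0.0195), a call lost without sgControl SCF replicate 1 or 3, sgEGR1 PBS replicate 2 or 3, or sgEGR1 SCF replicate 2. ZBTB7A was higher on average by 0.25 (adjusted p = 0.0255), a call lost with replicates 2 and 3 only and without sgControl PBS replicate 1, sgEGR1 PBS replicate 2, or sgEGR1 SCF replicate 2 or 3. The median log2 fold change of the tested genes of these 5 lists, in the order given, was 0.13, -0.02, 0.06, 0.04 and 0.03 in sgControl cells and 0.16, 0.06, 0.04, 0.05 and 0.02 in sgEGR1 cells, beside the medians near 0 of all tested genes given above. No gene of these lists was called between guides or in the interaction.

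MCL1 had both the largest average SCF response among the 9 tested members and the highest mean CPM over the 12 libraries, and the genes whose log2 CPM followed it most closely over the 12 libraries were SLC25A25 (Pearson r = 0.992), FOSL1 (0.989) and CDC6 (0.987), among 11176 candidates with an average of at least 2 CPM. These points share the split by treatment. SLC25A25, a mitochondrial ATP-Mg/phosphate carrier, averaged 22.4 CPM in sgControl PBS and 35.0 CPM in sgControl SCF. FOSL1, an AP-1 subunit, averaged 2.24 and 15.6 CPM in the same groups, and CDC6, a replication licensing factor, 44.9 and 59.2 CPM.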

How the data were processed

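Paired-end reads of 12 HUDEP-2 libraries were mapped by the authors to hg38 using HISAT. The deposited values are estimated counts for each gene from StringTie, not scaled for depth or length. All values were whole, so rounding changed nothing. The annotation, multi-mapping treatment and use of strand in counting were not stated, and labels and methods name different library kits. The column code besides the scrambled control was taken as sgEGR1, the only other construct in the labels. Members and gene lists were chosen with earlier results of these data known.

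CPM used library totals scaled by TMM factors. After filterByExpr, the quasi-likelihood test of edgeR 4.0.16 (R 4.3.3) was fitted over 12 libraries with 1 coefficient per group, with Benjamini-Hochberg adjustment over 15492 genes and calls at 0.05. No minimum fold change was required. DESeq2 1.42.0, other normalisation, no filter, replicate terms, pairs of groups and leaving out each library served as alternatives. The code was tested on simulated counts. Named were all members, EGR1, list genes called in a comparison, and the 3 genes most correlated with the member of largest average response and with the most abundant member. Lengths and coordinates came from GENCODE on hg38. Intervals of fold changes come from the edgeR fit and include the spread between libraries, whereas floors (3 counts) cover counting error only, as reads carried no molecular identifiers.

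Residuals of same-numbered libraries correlated at 0.102 to 0.269 between guides on log2 CPM with a prior count of 2 (lowest 0.0745 with 0.5). A fit with a replicate block, which treats the numbers as pairs, was therefore read there as an alternative. The guide estimates and intervals reported come from the fit without it and do not use this pairing. The replicate block changed no member's call between guides. Between PBS and SCF libraries replicate 1 correlated at 0.272 and 0.23, but the lowest was 0.00766, so not every number paired them and they were not treated as pairs.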

Additional observations from a re-analysis of the deposited data

How the results depend on the processing

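MCL1 kept its direction and its call after SCF in both guides under all 20 alternatives, with log2 fold changes of 0.89 to 0.93 in sgControl and 0.91 to 0.99 in sgEGR1 cells. The number of members called in sgControl cells, 2 in the fit reported, was 4 with a replicate block, with a term for replicate 1, and with that term and no library sgEGR1 SCF 3, 3 with DESeq2 or with replicates 2 and 3 only, and 1 with no low-count filter or with only the 2 groups compared. In sgEGR1 cells the number, 1 in the fit reported, was 3 with DESeq2, 4 with a replicate block or a term for replicate 1, and 2 with replicates 2 and 3 only or with that term and no library sgEGR1 SCF 3. Leaving out each library gave 1 to 2 members in sgControl and 1 to 2 in sgEGR1 cells, where BIK was added without sgControl PBS replicate 2 or sgControl SCF replicate 3. Between PBS and SCF libraries 3 of 6 in each guide correlated best with their own number, so the numbers were not used as pairs there, although replicate 1 stood apart in both treatments. The block raised the calls over all genes from 448 to 1184 in sgControl, from 402 to 1235 in sgEGR1 and from 1399 to 2799 on average. A term for replicate 1 gave 1289, 1326 and 2868 genes, that term with no library sgEGR1 SCF 3 gave 1186, 778 and 2442, replicates 2 and 3 only 575, 690 and 1748, no low-count filter 329, 302 and 1130, DESeq2 759, 773 and 1791, the 2 groups alone 192 and 250, and leaving out 1 library 194 to 448, 176 to 428 and 1032 to 1408. Between guides and in the interaction, the most genes called under any alternative were 51, 38 and 4, and 0 were members. BCL2L1 was called on average only with the term for replicate 1 and no library sgEGR1 SCF 3.

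Of 1061 member values under an alternative, 52 changed sign, none of them called. With replicates 2 and 3 only, the log2 value was -0.028 for BCL2 after SCF in sgControl, -0.018 and -0.015 for BCL2L1 and BMF between guides after PBS, -0.020 for BCL2L1 between guides after SCF, and -0.0018 and -0.013 for BCL2L1 and BCL2L11 in the interaction. BCL2L1 between guides after PBS was -0.00012 with the 2 groups compared and -0.0018 with the replicate 1 term and no library sgEGR1 SCF 3, where BCL2 between guides after SCF was -0.0077. Leaving out 1 library, BAD ranged from -0.044 to 0.030 on average, -0.037 to 0.11 in the interaction, -0.099 to 0.049 in sgControl, -0.027 to 0.064 in sgEGR1 and -0.060 to 0.089 between guides after PBS. Between guides after PBS, BAK1 ranged from -0.0059 to 0.068, BAX from -0.061 to 0.015, BCL2L1 from -0.012 to 0.016 and BMF from -0.15 to 0.25. Between guides after SCF, BCL2 ranged from -0.24 to 0.26, BCL2L1 from -0.022 to 0.13 and BIK from -0.12 to 0.045. In the interaction, BCL2L1 ranged from -0.024 to 0.13, BCL2L11 from -0.072 to 0.095, BMF from -0.10 to 0.31 and MCL1 from -0.0019 to 0.079. BCL2 in sgControl cells ranged from -0.021 to 0.47. The cause of these changes was not tested. At 0 to 19 counts per library, depth limits BCL2.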
